A study of Saccharomyces cerevisiae with 4 samples.

Results

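HSP26, HSP42, HSP104, SSA1, SSA2, SSA3, SSA4, SSE1, SSE2 and HSP82 are 10 genes for chaperones of the yeast cytosol, taken by reading frame name from a table of 6207 reading frames. They were chosen as genes known to differ in how far their expression depends on stress, and 9 of the 10 had a value on all 4 arrays. SSA3 had a value on 3 arrays.

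The cells were an slt2 mutant of Saccharomyces cerevisiae, which lacks a working gene for the mitogen-activated protein kinase of the cell wall integrity pathway. Cultures in rich glucose medium (YEPD) at 24 °C were split, and 1 part received zymolyase 100T, an enzyme preparation that digests cell wall glucan, at 5 units per ml. The untreated part carried the same slt2 mutation and stayed at the same temperature, so heat was not the treatment. RNA from both parts was collected at 3 h, and RNA of 2 cultures was hybridised to 4 two-colour arrays, with the treated RNA in Cy3 on arrays 1 and 3 and in Cy5 on arrays 2 and 4. On array 3 the treated RNA is labelled as wild type, against the array's title and its other channel. The parent strain and the construction of the mutant are not stated in the labels.

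Cytosolic chaperones hold unfolded proteins and help them refold. Small heat shock proteins bind unfolding proteins in large oligomers, Hsp70 proteins bind and release exposed segments by hydrolysing ATP, Hsp110 proteins act as nucleotide exchange factors for Hsp70, Hsp104 pulls proteins out of aggregates, and Hsp90 completes the folding of kinases and other clients. In yeast the heat shock factor Hsf1 drives many chaperone genes, and the general stress factors Msn2 and Msn4 drive some of them together with genes of carbohydrate metabolism and antioxidant defence. Several families hold a paralogue that is abundant in growing cells and a paralogue that is made chiefly under stress.

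The deposited value of a spot was a log ratio of both dyes, read here on the log2 scale. Arrays 1 and 3 and arrays 2 and 4 had opposite signs for most large changes, so values were turned to run the same way with respect to treatment. The numerator of the ratio is not given, and whether a side means more or less RNA with zymolyase therefore stays unknown. Values are printed as positive toward the side of HSP12, a stress gene with 2.50, 3.30, 2.80 and 1.91 on arrays 1 to 4, and as negative toward the side of TIP1, a cell wall mannoprotein gene. If the ratio is channel 2 over channel 1 (Cy3 over Cy5), the HSP12 side is higher with zymolyase. If it is Cy5 over Cy3, that side is lower. SLT2 itself had a value on 0 arrays, so the mutation could not be checked in the data.

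HSP26, HSP42 and SSE2 changed, all toward the HSP12 side and by 1.74-fold to 2.15-fold, and the other 6 chaperone genes with 4 values did not pass the test. A gene was called at an adjusted p under 0.05 (limma, Benjamini-Hochberg over 4788 genes, the larger p of both possible pairings of arrays with cultures), and that threshold was passed by 4.55% of all tested genes and, on the HSP12 side, by 4.34%. The 3 called genes were also the 3 whose 4 values had a common side, which 30.3% of all tested genes did, 11.8% on the HSP12 side. Of the 9 means, 7 lay on the HSP12 side, as did 42.5% of those of all tested genes. The median of the 9 was 0.21, against -0.06 over all tested genes. In RNA from a whole culture, a change in some cells cannot be told apart from a change in the amount of RNA per cell. Without array 1 the count of called chaperone genes was 0 of 9, without array 2 it was 1, without array 4 it was 2, and without array 3, the array with the deviating label, it was 3. These fits held fewer arrays, and their calls over all tested genes are not given here. Whether a lower count is particular to the chaperone genes therefore cannot be told.

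**Figure D1:**
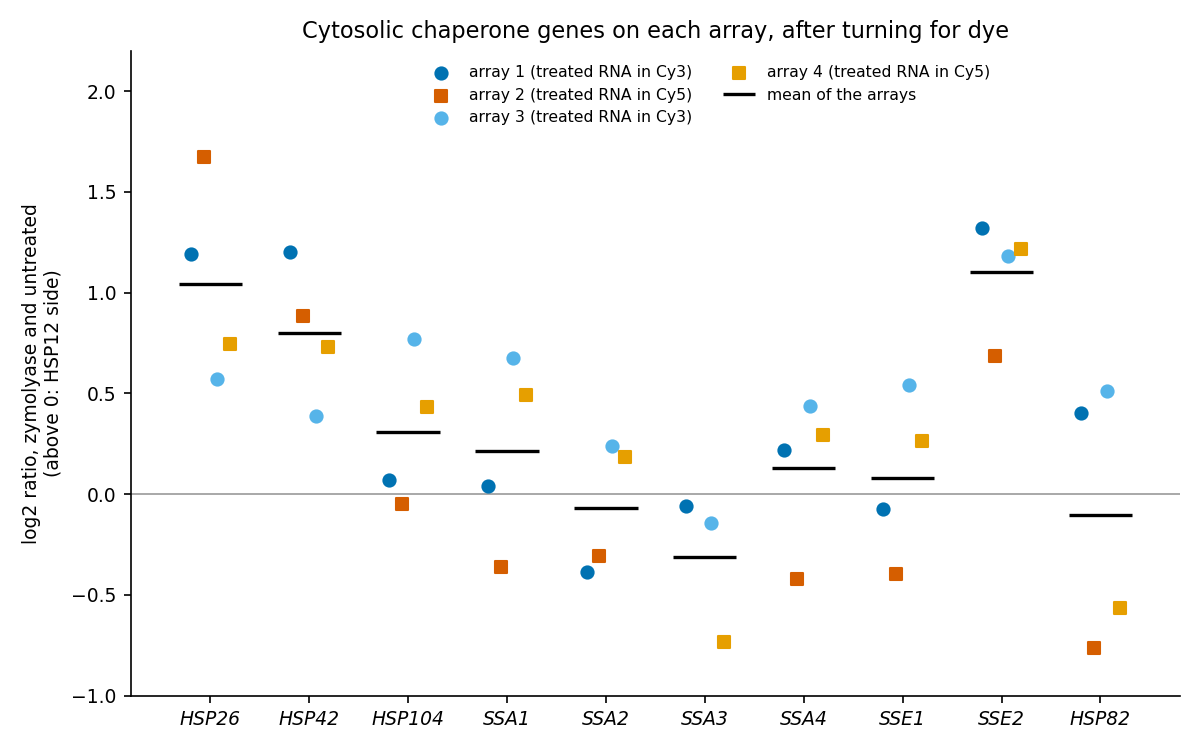
Log2 ratio of each of the 10 chaperone genes (x axis) on each array, after turning for dye (y axis, positive toward the HSP12 side); circles are arrays with the treated RNA in Cy3, squares those with it in Cy5, and bars the mean of the arrays with a value. HSP26, HSP42 and SSE2 have all 4 points above 0, and the HSP82 points split by dye, with 0.40 and 0.51 for circles and -0.76 and -0.57 for squares.

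The small heat shock protein genes HSP26 and HSP42 both changed. HSP26 (YBR072W), encoding a small heat shock protein that forms large oligomers and is made chiefly under stress, had 1.19, 1.67, 0.57 and 0.74 on arrays 1 to 4. All 4 values lay on the HSP12 side, and arrays 1 and 2 were higher than arrays 3 and 4. Its mean was 1.04 ± 0.49 (SD, n = 4 arrays of 2 cultures), or 2.06-fold, with a limma adjusted p of 0.000814. That p rests on a standard error of 0.24 common to all genes in the fit that gave it, and not on this SD.

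HSP42 (YDR171W), encoding the small heat shock protein that is also present in unstressed cells and gathers misfolded proteins into cytosolic deposits, had 1.20, 0.88, 0.39 and 0.73 on arrays 1 to 4. The lowest value was again that of array 3 and the values of arrays 1 and 2 were again the higher ones. The mean was 0.80 ± 0.34 (SD, n = 4), or 1.74-fold (limma adjusted p = 0.0267). HSP26 minus HSP42 was -0.01, 0.79, 0.18 and 0.01 on the 4 arrays, so that array 2 alone held a difference above 0.2 and the mean of 0.25 was smaller than its SD of 0.37 (exact sign-flip permutation test, two-sided, p = 0.25). The sign-flip test here and below takes each array as a sample of its own, although 4 arrays come from 2 cultures, so its p-values are too small for a comparison over cultures, and with 2 cultures it could give no p below 0.5.

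The calls of both genes depended on which arrays entered the fit. HSP26 was not called without array 1 (limma adjusted p = 0.107) or without array 2 (0.0695). HSP42 was called without array 3 (0.0275) and was not called without array 1, 2 or 4 (limma adjusted p = 0.210, 0.146 and 0.0840), and missed the threshold once the trend with coding length was removed (0.0536).

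The Hsp110 paralogues differed on every array. SSE2 (YBR169C), the stress-inducible paralogue, had 1.32, 0.69, 1.18 and 1.21 on arrays 1 to 4, with array 2 the lowest. Its mean of 1.10 ± 0.28 (SD, n = 4), or 2.15-fold, was the largest of the 10 genes and ranked 108 among 4788 tested genes toward the HSP12 side (limma adjusted p = 0.000310).

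SSE1 (YPL106C), the paralogue that is abundant in growing cells, had -0.08, -0.40, 0.54 and 0.26 on arrays 1 to 4. Arrays 1 and 2 lay on the TIP1 side and arrays 3 and 4 on the HSP12 side, and the mean of 0.08 ± 0.41 (SD, n = 4) was not called (limma adjusted p = 0.937). The highest SSE1 value lay below the lowest SSE2 value. Because the probes are not stated, RNA of either Hsp110 paralogue may have bound to both spots.

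SSE2 minus SSE1 was 1.40, 1.09, 0.64 and 0.95 on arrays 1 to 4. The difference had the same sign on all 4 arrays and a mean of 1.02 ± 0.31 (SD), 2.03-fold. Its exact two-sided sign-flip permutation p was 0.125, the smallest that 4 arrays can give, and 0.312 after Benjamini-Hochberg adjustment over the 5 pairs compared. Both genes have a coding length of 2082 bases, so the trend of the values with coding length described below is the same for both. SSE2 was not called without array 1 (limma adjusted p = 0.110) and was called without each other array, while the mean difference between the paralogues stayed between 0.89 and 1.145 whichever array was left out.

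The Hsp70 genes of the SSA family were not called. SSA1 (YAL005C), encoding a cytosolic Hsp70 that is made in growing cells and further induced by heat, had 0.04, -0.36, 0.67 and 0.49 on arrays 1 to 4, with a mean of 0.21 ± 0.47 (SD, n = 4) (limma adjusted p = 0.841). SSA2 (YLL024C), its near-identical paralogue with steady expression in growing cells, had -0.39, -0.31, 0.24 and 0.18, with a mean of -0.07 ± 0.33 (limma adjusted p = 0.947). Both had their higher values on arrays 3 and 4. SSA1 minus SSA2 was 0.43, -0.05, 0.43 and 0.31, positive on 3 of 4 arrays, with a mean of 0.28 ± 0.23 (exact two-sided sign-flip permutation p = 0.25). The probe on each spot is not stated, so RNA of either gene may have bound to both spots. RNA of other genes of the family may likewise have bound to the spots of SSA3 and SSA4.

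SSA4 (YER103W), the Hsp70 gene with very low expression in growing cells and strong induction by heat, had 0.22, -0.42, 0.44 and 0.29 on arrays 1 to 4. The 3 positive values and the negative value on array 2 gave a mean of 0.13 ± 0.38 (SD, n = 4), which was not called (limma adjusted p = 0.904). SSA3 (YBL075C), the other stress-inducible member of the family, had -0.06 on array 1, -0.14 on array 3 and -0.73 on array 4. It lay on the TIP1 side on all 3 arrays with a value, with a mean of -0.31 ± 0.37, and it was not called once genes measured on 3 arrays were admitted to the test (limma adjusted p = 0.854).

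SSA4 minus SSA3 was 0.28, 0.58 and 1.03 on arrays 1, 3 and 4. SSA4 thus lay further toward the HSP12 side than SSA3 on each array that held both, with a mean difference of 0.63 ± 0.38, and 3 arrays can give no exact sign-flip permutation p below the observed 0.25.  SSA4 exceeded SSE2 on none of the arrays.

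HSP104 (YLL026W), encoding the hexameric disaggregase that works with Hsp70 on aggregated proteins, had 0.07, -0.05, 0.77 and 0.43 on arrays 1 to 4. Arrays 1 and 2 were near 0 and arrays 3 and 4 lay on the HSP12 side, with a mean of 0.31 ± 0.37 (SD, n = 4) that was not called (limma adjusted p = 0.711). With arrays 1 and 4 and arrays 2 and 3 taken as the cultures, it passed (limma adjusted p = 0.0438). That pairing alone called many more of all tested genes than the main fit, as given in the last section, so this pass says little about HSP104 itself. HSP104 and SSA2 lie close together on their chromosome with 1 gene, PAU17, between them, and HSP104 has the greatest coding length of the 10 genes, 2727 bases.

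HSP82 (YPL240C), the stress-inducible gene of the Hsp90 pair, kept its deposited sign when the dyes were swapped. Its deposited values, before turning, were 0.40, 0.76, 0.51 and 0.57 on arrays 1 to 4, above 0 on every array although the treated RNA changed dye. Of the 9 chaperone genes it was the 1 with the same deposited sign on all 4 arrays, which 12.1% of all tested genes had. The mean deposited value, 0.56, is the part that does not change with the dye swap, and it was exceeded in size by 1.17% of the tested genes. After turning, the values were 0.40, -0.76, 0.51 and -0.57, and the mean was -0.10 ± 0.65 (SD, n = 4; limma adjusted p = 0.924). That mean lay on the other side when 1 array was left out, at 0.11 without array 2 and 0.05 without array 4.

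HSC82 (YMR186W), the near-identical Hsp90 paralogue with steady expression in growing cells, had 0.23, -0.77, 0.20 and -0.0009 after turning, with a mean of -0.08 ± 0.47. Its deposited values also lay above 0 on all 4 arrays. HSP82 minus HSC82 was 0.17, 0.004, 0.31 and -0.565, a mean of -0.02 ± 0.38 that turned to 0.03 with arrays scaled to equal spread and to 0.16 without array 4 (exact two-sided sign-flip permutation p = 1.00 over the 4 arrays). As with SSA1 and SSA2, near-identical sequence means that these spots cannot be told apart with certainty.

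**Figure D2:**
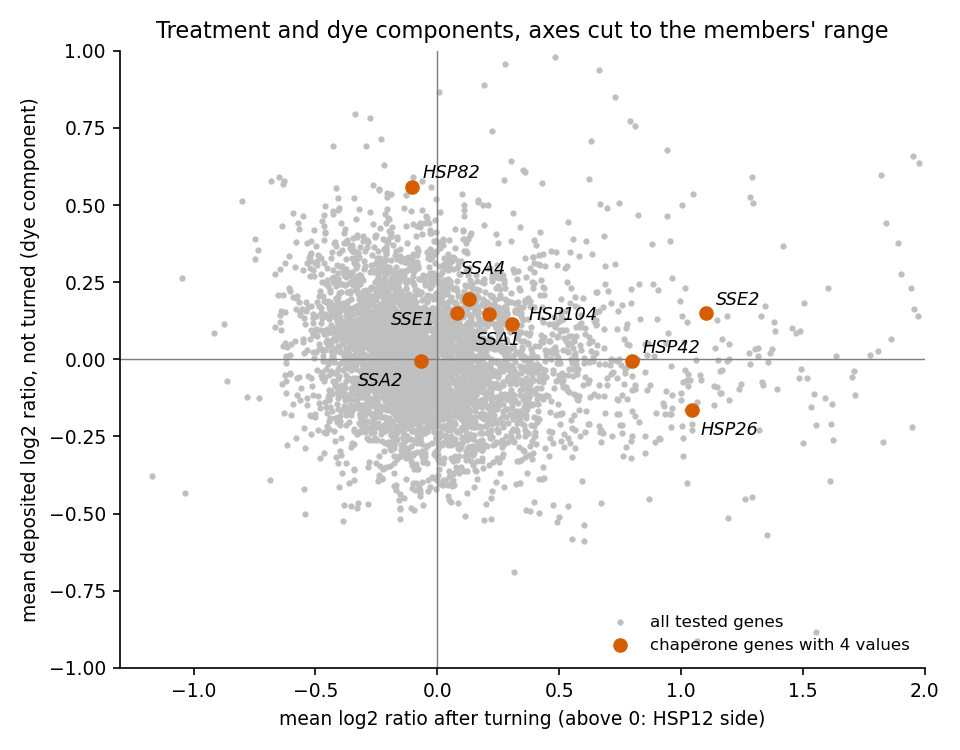
Mean log2 ratio after turning (x axis, positive toward the HSP12 side) against the mean of the deposited values without turning, the part that stays with the dye (y axis), for all tested genes (grey) and the 9 chaperone genes with 4 values (orange); 32 genes lie outside the axes. SSE2, HSP26 and HSP42 lie to the right with dye components between -0.16 and 0.15, and HSP82 lies near 0 on the x axis with a dye component of 0.56.

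**Figure D3:**
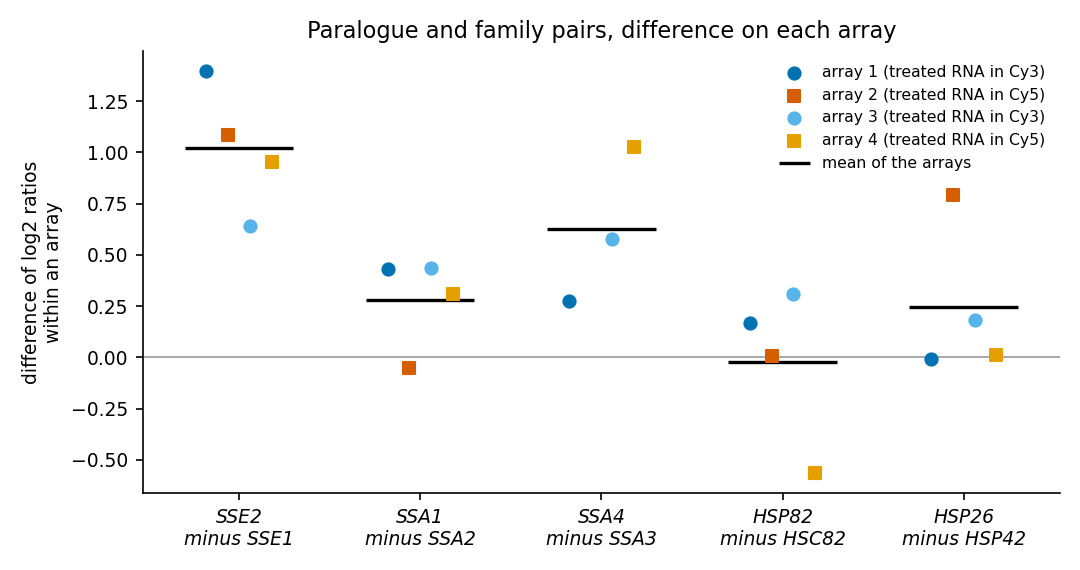
Difference of the turned log2 ratios of both genes of a pair within each array (y axis) for 5 pairs (x axis); circles are arrays with the treated RNA in Cy3, squares those with it in Cy5, and bars the mean. SSE2 minus SSE1 lies above 0.6 on all 4 arrays, SSA4 minus SSA3 is positive on the 3 arrays that hold both, and each of the other pairs has values on both sides of 0.

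Ordered by mean, the 9 genes ran SSE2, HSP26, HSP42, HSP104, SSA1, SSA4, SSE1, SSA2 and HSP82. None of the 8 steps between neighbours in this order had the same sign on all 4 arrays. The mean step was between 0.04 and 0.49 and smaller than the SD of the step over the arrays in every case, so that neighbours in the order did not differ beyond their spread. The step from HSP42 to HSP104, which separates called from uncalled genes, was 1.13, 0.93, -0.38 and 0.30 on arrays 1 to 4, with the order of these genes turned round on array 3.

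Most genes that were not called had higher values on arrays 3 and 4 than on arrays 1 and 2. Of the 9 genes, 7 had a higher mean on arrays 3 and 4, against 43.2% of all tested genes. HSP104, SSA1, SSA2 and SSE1, and also SSA4, had both values of arrays 3 and 4 above both values of arrays 1 and 2, which 20.8% of all tested genes had. HSP26 and HSP42 ran the other way, with means of 1.43 and 1.04 over arrays 1 and 2 and of 0.66 and 0.56 over arrays 3 and 4. Across all tested genes with a known coding length, values on arrays 3 and 4 lay further toward the HSP12 side the longer the gene (Spearman's rho 0.44 and 0.40 across 4599 genes), and those on arrays 1 and 2 did not (-0.01 and -0.18). HSP26 and HSP42 have coding lengths of 645 and 1128 bases, and the other 8 chaperone genes of 1920 to 2727 bases.

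With the coding-length trend removed from each array, the gap between arrays 3 and 4 and arrays 1 and 2 was 0.51 for SSA1, where it had been 0.74, and 0.23 for HSP104, where it had been 0.59. For SSA2 it was 0.32 instead of 0.56, for SSE1 0.36 instead of 0.64, and for SSA4 0.23 instead of 0.47. The gap of these 5 genes thus shrank and kept its sign. For SSE2 it went from 0.19 to -0.08 and for HSP82 from 0.15 to -0.14, so that 5 of the 9 genes, not 7, were then higher on arrays 3 and 4. The means of SSE2 and HSP26 were 1.04 and 1.18 after this step, both still called (limma adjusted p = 0.0161 and 0.0254).

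Other chaperone systems held no called gene. Over all tested genes the called share was 4.55%. Lists this short can hold 0 called genes at that share. The smallest mean size that was called in any of the 4788 tested genes was 0.75. Of 220 tested genes with a mean size of at least that, 218 were called, and the largest uncalled mean size was 1.38. The call was thus close to a cut on mean size, and smaller changes in these lists would not have been called. Of 15 partners of Hsp70 and Hsp90, 0 passed (limma, with 0 at an unadjusted p under 0.05) and 13 had a mean on the TIP1 side, against 57.5% of all tested genes, with a median of -0.14. The largest sizes with the same side on all 4 arrays were those of PPT1, a protein phosphatase bound to Hsp90 (-0.48), HCH1, a co-chaperone of Hsp90 (-0.43), and FES1, a nucleotide exchange factor of Hsp70 (-0.40). HCH1 is short (462 bases), with means of -0.11 over arrays 1 and 2 and -0.75 over arrays 3 and 4, where values followed coding length. The median of all tested genes lay on the TIP1 side as well, at -0.06.

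Among 5 chaperones of nascent chains with 4 values, 0 passed (limma, 0 at an unadjusted p under 0.05) and the median was -0.20, with ZUO1, a ribosome-bound J protein gene, at -0.32. Among 14 subunits of the cytosolic chaperonin and of prefoldin, which fold actin and tubulin, 0 passed (limma, 0 at an unadjusted p under 0.05) and the median was -0.17. The prefoldin subunit genes GIM3, GIM5 and GIM4 had means of -0.34, -0.29 and -0.18, with all 4 values on the TIP1 side. Of 4788 tested genes, 888 had all 4 values there. These subunit genes are short (390, 575 and 424 bases). Their means lay further to that side on arrays 3 and 4, where values followed coding length. Their values without that trend are not given here. Among 8 mitochondrial and 6 endoplasmic reticulum chaperone genes, 0 passed (limma, 0 and 0 at an unadjusted p under 0.05), with medians of 0.06 and 0.25. PDI1 and SCJ1, a disulfide isomerase gene and a J protein gene of the endoplasmic reticulum, lay on the HSP12 side on all 4 arrays with means of 0.42 and 0.25.

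The genes were also set beside lists of targets of the stress factors, written from general knowledge. Of 17 measured genes described as dependent on Hsf1, 1 was called, HSP42, against 4.55% of all tested genes. The median of the list was -0.08. The list shares HSP42, HSP104, SSA1, SSA2 and HSP82 with the 10 chaperones, and of its 12 other measured genes 0 passed (limma, 0 at an unadjusted p under 0.05). BTN2, a gene for a protein sorting factor, had a mean of -0.41 on the TIP1 side on all 4 arrays, and so did CUR1, its paralogue, with -0.28. CUR1 (759 bases) had means of -0.05 over arrays 1 and 2 and -0.51 over arrays 3 and 4, where values followed coding length.

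Of 14 measured genes outside the chaperones described as dependent on Msn2 and Msn4, 13 were called, all on the HSP12 side, as were 4.34% of all tested genes. The median of the list was 2.00. HSP12 is among the 13, and its side was fixed in advance because it names the side. This list was written with earlier results of these arrays known and is no independent evidence of its side. DDR2 and NQM1, a transaldolase paralogue, had the largest means, 3.92 (with 9.10 on array 2) and 3.58. CTT1 (cytosolic catalase), HSP12 and ALD3 (aldehyde dehydrogenase) had means of 2.84, 2.63 and 2.51. The genes of trehalose synthesis TPS2 and TSL1 had 2.27 and 2.05, and those of glycogen and glucose phosphate metabolism PGM2, GPH1 and GSY2 had 1.96, 1.71 and 1.42. The glucose kinase genes HXK1 and GLK1 had 1.33 and 1.16, and TKL2 (transketolase) had 1.00. The means of the called chaperone genes, 0.80 to 1.10, were below the list's median, and the polyubiquitin gene UBI4, the member that was not called, had 0.53.

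Of the genes for the factors themselves, MSN4 had 0.50, 0.44, 0.79 and 1.31 on arrays 1 to 4 and was called (mean 0.76 ± 0.40, SD, n = 4; limma adjusted p = 0.0423). MSN2 had 0.17, 0.375, 1.18 and 1.03 and was not called (mean 0.69; limma adjusted p = 0.0942). HSF1 had -0.165, 0.06, 0.57 and 0.73, a mean of 0.30 with its higher values on arrays 3 and 4 (limma adjusted p = 0.723). MSN4 was not called without array 1, 2 or 4 (limma adjusted p from 0.118 to 0.233) or after removal of the coding-length trend (0.0851).

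**Figure D4:**
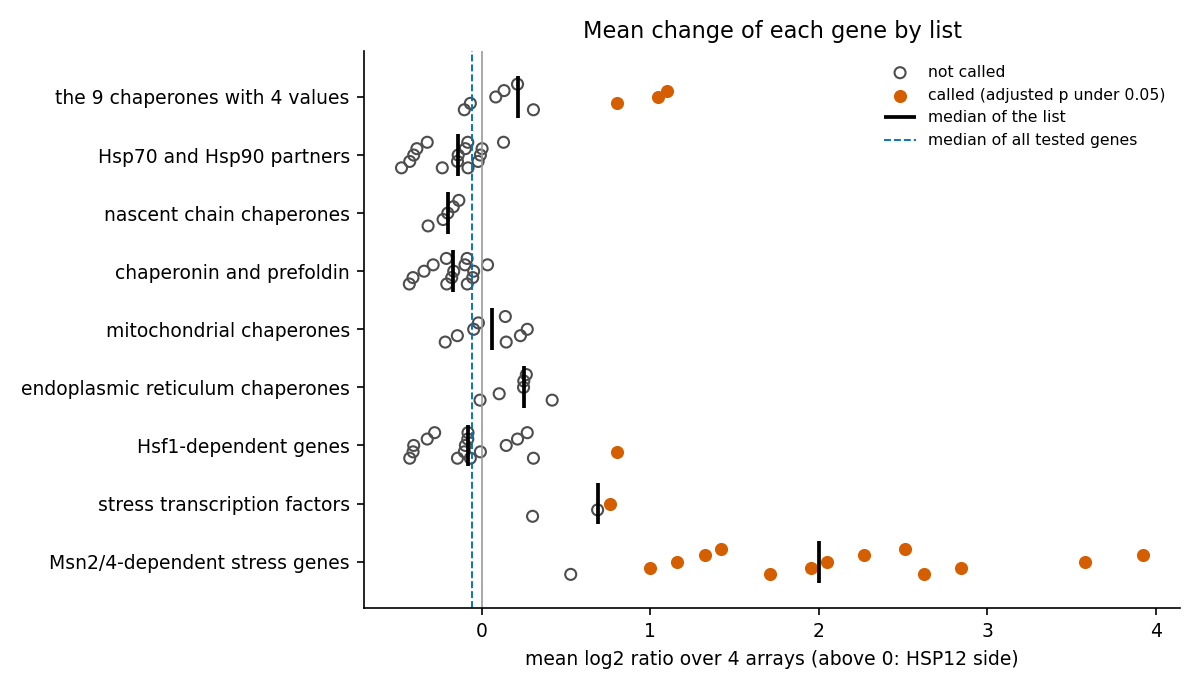
Mean log2 ratio over 4 arrays (x axis, positive toward the HSP12 side) of each gene with 4 values, by list (y axis); filled points are called, open points are not, black bars are list medians, and the dashed line is the median of all tested genes, -0.06. The Hsf1 list shares 5 genes with the chaperones of the top line, and HSP42 is its called point at 0.80.

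The genes nearest to a chaperone gene over the 4 turned values were found by Euclidean distance among the tested genes. PRX1, a mitochondrial peroxiredoxin gene, was nearest to HSP26 (distance 0.26), with 1.05, 1.73, 0.51 and 0.54 on arrays 1 to 4, followed by YGP1 and PNC1, a nicotinamidase gene. UGP1, which makes UDP-glucose, was nearest to SSE2 (distance 0.41), with 1.33, 0.83, 0.96 and 0.90, followed by CAF4 and ISC1, a sphingolipid phospholipase gene. All 6 were called, and SSA4 was nearest to DBP10, VPH1 and SRP54 (distances 0.10 to 0.14), none of which was called. Both outcomes follow largely from the choice, because calls went closely with the mean and neighbours have similar means. They give no separate support.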

How the data were processed

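The authors deposited 1 log ratio per reading frame and array, treated here as log2 by its size, because neither base nor numerator is stated. Background correction, normalization and the spot filter are not stated, scanner intensities were not used here, and the number of arrays limits the precision. Per the labels of both channels, arrays 1 and 3 carried the treated RNA in Cy3 and were turned relative to arrays 2 and 4. After turning, arrays correlated across genes with r from 0.29 to 0.60. Arrays 1 to 4 held 5402, 5434, 5201 and 4931 values, with deposited medians of -0.02, 0.05, -0.10 and 0.02, and no centring was added. Scale, centring and direction as set by the authors stay unknown.

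Genes with a value on each of the 4 arrays were tested. The labels do not tie arrays to the 2 cultures, so limma 3.58.1 (R 4.3.3) was fitted on culture means for arrays 1 with 2 and 3 with 4, and for arrays 1 with 4 and 2 with 3. The larger p of both fits was kept per gene, adjusted by the Benjamini-Hochberg method and called under 0.05. In the first pairing the prior degrees of freedom were infinite, so every gene had the same standard error of 0.24. The p of that fit thus follows the mean alone and not the spread of the gene itself. SDs are over 4 arrays, which mix cultures and dyes. The smallest mean size that was called among all tested genes was 0.75, so a gene that was not called may still have changed.

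Members, gene lists, tests and alternatives were chosen with earlier results of these data known, and give no independent support. Every chaperone gene was named, and from other lists the called genes or up to 3 with the largest mean and the same side on all arrays. BTN2, CUR1, UBI4, MSN2 and HSF1 fall outside that rule and were named after their values were seen. CUR1 had first been listed under a wrong reading frame, corrected to YPR158W after the data were seen. RefSeq assembly R64 gave names and coding lengths, with 5711 of 6207 frames matched. MBF1 of the Hsf1 list and the promoter motifs planned were not analysed here.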

Additional observations from a re-analysis of the deposited data

How the results depend on the processing

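The 3 called chaperone genes kept their side under every alternative run, and the count stayed between 2 and 4 under all alternatives that used all 4 arrays. The count of 4 arose only with arrays 1 and 4 and arrays 2 and 3 as cultures, where HSP104 joined the called genes. That model called 1415 of 4788 tested genes, against 218 in the main fit. The calls over all tested genes under the other alternatives are not given here. HSP42 left the called genes with the coding-length trend removed. Leaving out 1 array gave counts from 0 (without array 1) to 3 of 9, with fewer arrays in the fit by construction. Of the other results that moved, the pairing of arrays 1 with 4 and 2 with 3 alone called 5 partners of Hsp70 and Hsp90, 1 nascent chain chaperone, 3 chaperonin and prefoldin genes, 1 endoplasmic reticulum chaperone, 6 Hsf1-dependent genes and all 3 stress factor genes, where the same model called 1415 genes in all. The stress factor count was 2 with robust variance moderation, 0 with genes on at least 3 arrays and 0 with the coding-length trend removed, which also left 0 Hsf1-dependent genes called. Without single arrays these 2 counts ranged from 0 to 1. HSP82 minus HSC82 turned to 0.030 with arrays scaled to equal spread and to 0.085 over arrays 1 and 2 alone, and ranged from -0.13 to 0.16 without single arrays. Means that were not called also changed side without single arrays, where SSA2 ranged from -0.17 to 0.038, HSP82 from -0.31 to 0.11 and SSE1 from -0.071 to 0.24. Over arrays 1 and 2 alone, SSA1, SSA4 and SSE1 turned to -0.16, -0.10 and -0.24. Over arrays 3 and 4 alone, SSA2 turned to 0.21. The cause was not tested. SSE2 minus SSE1, SSA1 minus SSA2, SSA4 minus SSA3 and HSP26 minus HSP42 kept their side under every alternative run. SSA4 minus SSA3 could not be computed where a value on all 4 arrays was required. Each log ratio sets treated against untreated RNA on the same array. No paired analysis was possible beyond that, because the arrays form 1 group and no other group shares their replicate numbers.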
